A study of Homo sapiens with 16 samples.

Results

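The cytoplasmic ribosomal protein genes were followed across the 4 phases of the GRC1 cell line, a gemcitabine-resistant derivative of T24. The members are the 84 of 39007 gene rows whose symbol is RPL or RPS with a number and at most the suffix A, X, L or L1, together with RPLP0, RPLP1, RPLP2 and RPSA. Processed pseudogenes, Y-linked copies and the S6 kinases were left out. Of these 84 genes, 52 have names of the large subunit and 32 of the small subunit, and 81 had a mean above 1 CPM (counts scaled to the library total) and were tested.

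T24 is an established human bladder cancer cell line, and gemcitabine is a deoxycytidine analog that blocks DNA synthesis. Parental phase P0 was T24 itself. The GRC1 cells were taken at an early (P3), an intermediate (P7) and a late phase (P15), numbered by their rounds of gemcitabine exposure and regrowth. All libraries came from cells in the same medium with serum, from RNA read with poly(dT) primers, and each phase had 4 libraries. GRC1 is 1 of 4 lines derived in the same way, so no other line stands beside it here, and the labels do not say whether the libraries of a phase came from separate cultures. The p-values below therefore measure only the spread between these libraries, and phase cannot be told apart from the time at which the cells of a phase were grown. All sample titles carry the tag NT, which the labels do not spell out, so whether gemcitabine was present at harvest is not known here. The titles also carry sample-sheet numbers that partly recur between phases, so the libraries did not share 1 numbering, but the run of each library is not given and none could be used as a term.

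A ribosome is built from ribosomal RNA and a fixed set of proteins, nearly all needed in equal number, and their mRNAs are among the most abundant of a growing cell. Most of these mRNAs begin with a cytosine followed by a run of pyrimidines, the terminal oligopyrimidine (TOP) motif, through which mTOR signalling and the RNA-binding protein LARP1 control their translation and stability. A few ribosomal proteins have a paralog, encoded by a second gene and more variable between tissues and tumours, such as RPL22L1 for RPL22 and RPL39L for RPL39.

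The bases around the annotated start are shown for the genes that carry the results below, first for genes with a TOP-like start and then for genes without. Each line holds 15 bases before the RefSeq start and 15 from it (GRCh38.p14, read 5′ to 3′ on the strand of the gene), and capitals mark a C at the start and the unbroken pyrimidines after it. RPL13A lies at chr19:49487593-49487622 on the plus strand, RPS6 at chr9:19380222-19380251 on the minus strand, RPL39 at chrX:119791616-119791645 on the minus strand, RPS3 at chr11:75399503-75399532 on the plus strand and RPL22L1 at chr3:170870181-170870210 on the minus strand. RPS27L lies at chr15:63157463-63157492 on the minus strand, RPL26L1 at chr5:172958714-172958743 on the plus strand, RPL7L1 at chr6:42879601-42879630 on the plus strand and RPS26 at chr12:56041903-56041932 on the plus strand.
RPL13A: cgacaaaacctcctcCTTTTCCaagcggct
RPS6: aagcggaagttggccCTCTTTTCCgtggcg
RPL39: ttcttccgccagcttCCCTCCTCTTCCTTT
RPS3: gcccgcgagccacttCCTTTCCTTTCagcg
RPL22L1: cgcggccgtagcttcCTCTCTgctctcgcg
RPS27L: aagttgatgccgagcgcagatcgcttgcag
RPL26L1: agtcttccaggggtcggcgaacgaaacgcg
RPL7L1: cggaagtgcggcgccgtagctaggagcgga
RPS26: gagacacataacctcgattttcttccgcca

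Of the 84 genes, 67 matched the RefSeq promoter table, and 43 of these (64.2%) had a C at the annotated start followed by at least 4 pyrimidines, against 3.9% of 27238 other symbols and 4.98% of 9649 other tested genes. An annotated start can lie a few bases from the start a cell uses, so a missing run says only that these letters are not at this position. In the window from 250 bases before to 50 after the start, the ETS motif CCGGAAG stood on either strand in 23 of the 67 (34.3%), against 19.8% of the other tested genes. The YY1 motif AAGATGG stood in 9 (13.4%, against 7.64%), the E-box CACGTG in 4 (5.97%, against 10.0%), the SP1 motif GGGCGG in 36 (53.7%, against 71.4%) and TATAAA in 7 (10.4%, against 5.1%).

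The summed level of the 84 genes fell from P0 to P3, stayed low at P7 and was highest at P15. It was 62091 to 65202 CPM at P0, 47702 to 48779 at P3, 50236 to 51416 at P7 and 78944 to 85522 at P15, so the libraries of each phase lay apart from those of every other phase. The genes thus held 6.35% ± 0.15 (SD, n = 4) of a library at P0, 4.83% ± 0.046 at P3, 5.09% ± 0.05 at P7 and 8.32% ± 0.29 at P15. The mean at P3 was 0.76 of that at P0, the mean at P7 was 0.802 and the mean at P15 was 1.31 times it. These are shares of a library, which depend on all other RNA counted, so amounts per cell cannot be read from them. In bulk RNA, a change in all cells and a change in some of them cannot be told apart. The large and the small subunit moved together, with a ratio of their sums of 1.54 at P0, P3 and P7 and 1.6 at P15. The 78 mitochondrial ribosomal protein genes, which serve the separate ribosome of the mitochondrion, did not share this course, with sums of 4146 to 4339 CPM at P0, 4152 to 4242 at P3, 3801 to 3890 at P7 and 4438 to 4550 at P15. P15 replicate 3 had the lowest sum of its phase, 78944 CPM.

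**Figure D1:**
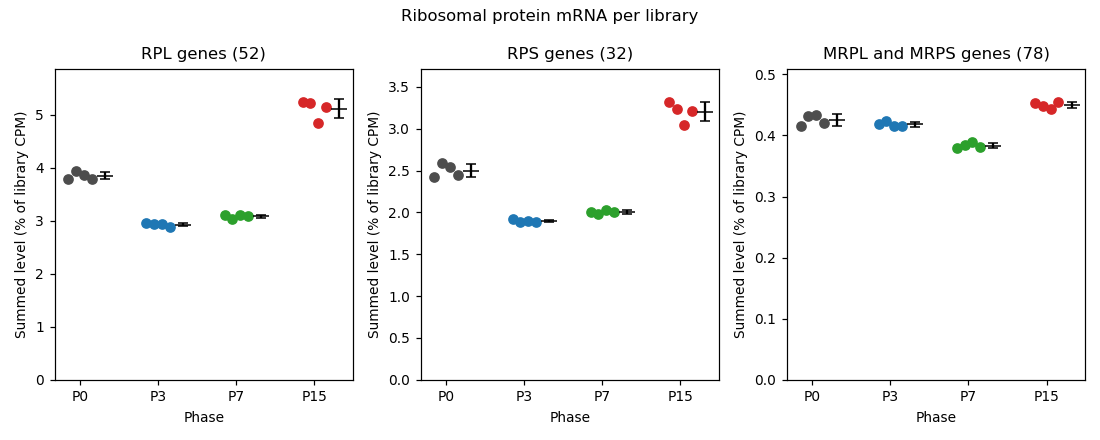
Summed level in percent of the CPM of a library (vertical axis, from 0) by phase, for the RPL genes, the RPS genes and the mitochondrial ribosomal protein genes, with 1 point per library and the mean ± SD of the 4 libraries as a black bar. Both cytoplasmic subunits are lowest at P3 (means 2.93% and 1.9%) and highest at P15 (5.12% and 3.21%), while the mitochondrial set stays between 0.38% and 0.455%.

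The smallest steps between low values put the libraries at 33.8 to 50.0 M counts. The tested member with the fewest counts, RPL39L, therefore rested on at least 66 counts per library and the median member on at least 16135 in its lowest library. The epithelial origin was checked with keratin and adhesion genes. Of 6 epithelial markers, 5 were above 1 on the log2 scale at P0, P3 and P7 and 3 at P15, and their summed level was 2075 to 2153 CPM at P0, 2347 to 2484 at P3, 1666 to 1814 at P7 and 673 to 750.5 at P15, with CDH1 at or near 0 in all libraries. Of 9 urothelial markers, 2 were above 1 at P0, P3 and P7 and 3 at P15, with sums of 95.8 to 103 CPM at P0, 67.1 to 73.9 at P3, 107.2 to 110.6 at P7 and 18.4 to 22 at P15, and with KRT5, KRT20, UPK1B and UPK3A at or near 0 in all libraries. Of 5 fibroblast markers, 3 were above 1 at P15, where their sum was 46.5 to 51.4 CPM against 1.7 to 8.2 in the other phases, with DCN and LUM at most at 0.57 on the log2 scale in any library. On this scale COL3A1 had 0.00 at P0 and 4.40 to 4.57 at P15, and COL1A1 2.55 to 2.62 and 4.57 to 4.76. PDGFRB overlapped, with 1.61 to 2.11 and 1.66 to 1.86. The 4 leukocyte markers summed to 6.2 to 8.5 CPM at P0, 1.8 to 2.2 at P3, 5.6 to 6.2 at P7 and 0.1 to 0.2 at P15. CD14 had log2 levels of 2.84 to 3.24, 1.47 to 1.62, 2.70 to 2.83 and at most 0.13 in these phases, and PTPRC at most 0.08. The 3 endothelial markers summed to 6.0 to 7.9 CPM at P0 and at most 1.1 later, with CDH5 at 2.59 to 2.97 and then at most 0.38. Genes encoded by the mitochondrial genome took 0.94 to 1.8% of a library at P0, 1.36 to 1.59% at P3, 1.63 to 1.92% at P7 and 1.13 to 1.32% at P15. At P15 the epithelial, urothelial and leukocyte sums were lower, and the fibroblast sum higher, than in the other phases. Within the epithelial and urothelial lists, KRT7, KRT8, KRT19, EPCAM, GATA3 and PPARG were lower at P15 than at P0. On the log2 scale KRT18 (8.85 to 8.92 at P0, 9.21 to 9.38 at P15) and UPK1A (0.04 to 0.22 at P0, 1.41 to 1.74 at P15) were higher. The part of these marker changes and of the mitochondrial share in the results below was not tested.

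Most of the genes were lower at early phase P3 than at parental phase P0. Of the 81 tested members, 72 were lower and 4 higher at P3, against 37.3% lower and 31.4% higher among all 13249 tested genes (limma with Benjamini-Hochberg adjustment over all tested genes, adjusted p below 0.05, here and below). The median log2 fold change of the members was -0.33, a fold of 0.794, and that of all tested genes was -0.02. The lower genes were 45 of 50 in the large subunit, with a median of -0.32, and 27 of 31 in the small subunit, with a median of -0.35. No member changed by 1 or more on the log2 scale, which 2.51% of all tested genes did downward and 1.95% upward. RPL22L1, RPS6 and RPL3 fell most, and RPL3, RPL13A, RPS6, RPS3 and RPL4 made the largest contributions in CPM, not divided by length, to the summed change of -15200 CPM (-862, -808, -766, -760 and -710 CPM).

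RPS6, a protein of the small subunit that S6 kinase phosphorylates, had log2 levels of 10.58, 10.69, 10.66 and 10.60 at P0 and of 9.71, 9.69, 9.68 and 9.65 at P3. At P7 it had 9.72, 9.73, 9.72 and 9.71, and at P15 10.69, 10.62, 10.54 and 10.64. The P3 and P7 libraries lay well below all others, and P15 overlapped P0. The log2 fold change was -0.95 (SE 0.03, limma adjusted p = 1e-17) from P0 to P3, 0.90 (adjusted p = 2.5e-18) from P7 to P15 and -0.01 (adjusted p = 0.78) between P15 and P0. RPL3, a large subunit protein near the peptidyl transferase centre, had 10.83, 10.80, 10.81 and 10.86 at P0, 9.90, 9.89, 9.90 and 9.89 at P3, 10.26, 10.24, 10.29 and 10.27 at P7 and 11.31, 11.31, 11.21 and 11.25 at P15. Its 4 phases did not overlap, and it had already recovered by 0.37 (SE 0.03, adjusted p = 1.7e-10) between P3 and P7.

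The 4 genes called higher at P3 were RPL26L1, RPL39L, RPL7L1 and RPS26, of which 3 are paralogs. RPS26, a small subunit protein at the mRNA exit channel, had log2 levels of 6.84, 7.07, 6.98 and 6.91 at P0, 7.42, 7.42, 7.41 and 7.36 at P3, 6.98, 7.05, 7.02 and 7.00 at P7 and 6.74, 6.68, 6.69 and 6.71 at P15. Only its P3 libraries stood above P0, P7 lay within the range of P0, and P15 lay below every other library. Its changes were 0.45 (SE 0.04, limma adjusted p = 2.1e-10) from P0 to P3, -0.39 (adjusted p = 5.9e-09) from P3 to P7 and -0.31 (adjusted p = 5.6e-08) from P7 to P15. In P3 replicate 2 the sample-sheet number lies apart from those of the other 3 P3 libraries, and without it 72 members were lower and 4 higher. RPL17, RPL36A, RPS21, RPS27A and RPS27L did not pass the test at P3. RPL17 passed it without P0 replicate 3 (-0.16, adjusted p = 0.046) and RPS27L without P0 replicate 4 (-0.14, adjusted p = 0.017), while RPL36A, at 0.32 with all libraries, passed it without P0 replicate 2 (0.38, adjusted p = 0.034), P3 replicate 1 (0.39, adjusted p = 0.038) or P15 replicate 3 (0.32, adjusted p = 0.016).

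From P3 to P7 the genes moved little. Of the 81 members, 33 were higher and 7 lower, against 30.3% and 28.0% of all tested genes, with a median log2 fold change of 0.06 against 0.01. None reached 1 on the log2 scale, which 0.996% of all tested genes did upward and 0.845% downward. Among the 7 lower genes were RPL26L1, RPL32, RPL35, RPL4, RPS2 and RPS26. RPL34, with 7.61, 7.45, 7.61 and 7.59 at P3 and 7.89, 8.02, 7.97 and 7.86 at P7, rose by 0.37 (SE 0.05, limma adjusted p = 3.9e-07), as much as RPL3.

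Between P7 and P15 the level rose across the set. Of the 81 members, 69 were higher and 8 lower, against 46.3% and 40.1% of all tested genes. The median log2 fold change was 0.73, a fold of 1.66, against 0.06 for all tested genes, and it was 0.71 for the large and 0.75 for the small subunit. A change of at least 1 on the log2 scale was found upward in 17 members (21.0%, against 13.4% of all tested genes) and downward in none (12.1% of all tested genes). Among the 17 were RPL12, RPL13A, RPL18, RPL22L1, RPL29, RPL3, RPL32, RPL39L, RPL4, RPL5, RPS2, RPS29 and RPS9. With quantile normalization of the libraries, which the methods of the study name, 10 members (12.3%) reached this size, against 12.4% of all tested genes, so the excess over the background at this size was gone, while 65 members (80.2%) were higher at any size against 44.2%. Without P15 replicate 1, whose sample-sheet number lies apart from those of its phase, 68 members were higher and 8 lower. RPL13A, RPL4, RPS2, RPLP0 and RPL5 made the largest contributions, 2275, 2000, 1438, 1340 and 1301 CPM of a summed change of 32296 CPM.

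RPL13A, a large subunit protein also known from the translational control of inflammatory mRNAs, had log2 levels of 10.89, 10.92, 10.95 and 10.91 at P0 and of 10.17, 10.11, 10.14 and 10.13 at P3. It had 10.46, 10.39, 10.40 and 10.42 at P7 and 11.87, 11.87, 11.75 and 11.83 at P15. The phases did not overlap, and the P15 libraries stood far above the rest, with a change from P7 of 1.41 (SE 0.03, limma adjusted p = 1.7e-22). RPL4, a large subunit protein that lines the peptide exit tunnel, was lowest at P7, with 10.33, 10.32, 10.32 and 10.31 against 10.49, 10.46, 10.46 and 10.47 at P3 and 11.08, 11.01, 11.07 and 11.06 at P0. It reached 11.72, 11.71, 11.58 and 11.70 at P15, a rise of 1.36 (SE 0.03, adjusted p = 4.3e-22) from P7. RPL12, a large subunit protein at the base of the stalk, rose by 1.35 (SE 0.03, adjusted p = 1.2e-22).

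RPL5 and RPL11 form a particle with the 5S ribosomal RNA that also binds the p53 regulator MDM2. RPL5 had log2 levels of 10.33, 10.40, 10.38 and 10.32 at P0, 10.00, 9.98, 10.00 and 9.98 at P3, 10.04, 10.05, 10.05 and 10.02 at P7 and 11.26, 11.19, 11.12 and 11.23 at P15. RPL11 had 9.99, 9.96, 9.97 and 9.90 at P0, 9.65, 9.67, 9.69 and 9.61 at P3, 9.74, 9.67, 9.66 and 9.65 at P7 and 10.41, 10.42, 10.26 and 10.37 at P15. Both dropped at P3 and were highest at P15 with no overlap between P15 and the other phases, and the change from P7 to P15 was 1.16 (SE 0.03, limma adjusted p = 6.3e-21) for RPL5 and 0.68 (SE 0.03, adjusted p = 2.6e-15) for RPL11. Whether those 2 changes differ from each other was not tested.

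The stalk proteins RPLP0, RPLP1 and RPLP2 recruit the elongation factors. RPLP0 rose by 0.89 (SE 0.03, limma adjusted p = 1.8e-18) and RPLP1 by 0.86 (SE 0.04, adjusted p = 1.7e-16) from P7 to P15. RPLP2 rose by 0.26 (SE 0.04, adjusted p = 3.8e-06), with 9.47, 9.38, 9.56 and 9.42 at P7 and 9.69, 9.76, 9.71 and 9.69 at P15. With quantile normalization this last change was 0.07 (adjusted p = 0.15). RPSA, a small subunit protein also known as the laminin receptor, rose by 0.83 (SE 0.03, adjusted p = 5.1e-19), and RPS19, a small subunit protein mutated in Diamond-Blackfan anaemia, by 0.90 (SE 0.04, adjusted p = 4.8e-17). RPS27A, made as a fusion with ubiquitin, had 9.18 to 9.39 at P0, 9.24 to 9.35 at P3, 9.32 to 9.40 at P7 and 9.36 to 9.59 at P15, a change of 0.12 (SE 0.04, adjusted p = 0.014) from P7 to P15. This was 0.00 (adjusted p = 0.92) with quantile normalization and 0.08 (adjusted p = 0.084) without P15 replicate 1.

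The 8 genes lower at P15 than at P7 were RPL10, RPL17, RPL19, RPL23, RPL39, RPS21, RPS26 and RPS27L, and RPL27, RPL36A, RPL7L1 and RPS3 did not pass the test. RPL10, a late-joining protein of the large subunit, stayed between 10.78 and 11.10 in all libraries, with a change of -0.21 (SE 0.03, limma adjusted p = 3.8e-06). RPL23, a large subunit protein that also binds MDM2, had 9.80, 9.71, 9.80 and 9.78 at P0, 9.39, 9.35, 9.37 and 9.33 at P3, 9.38, 9.42, 9.34 and 9.39 at P7 and 9.24, 9.21, 9.06 and 9.22 at P15. It fell at P3 and again at P15, by 0.20 (SE 0.03, adjusted p = 1.2e-05) from P7. RPS3, a small subunit protein with a described role in DNA repair, had 11.07, 11.21, 11.15 and 11.10 at P0, 10.54, 10.54, 10.54 and 10.53 at P3, 10.68, 10.68, 10.69 and 10.68 at P7 and 10.78, 10.73, 10.66 and 10.72 at P15. It fell by 0.60 at P3 (SE 0.03, adjusted p = 6.7e-14), and its change from P7 to P15 of 0.04 did not pass the test (adjusted p = 0.25).

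**Figure D2:**
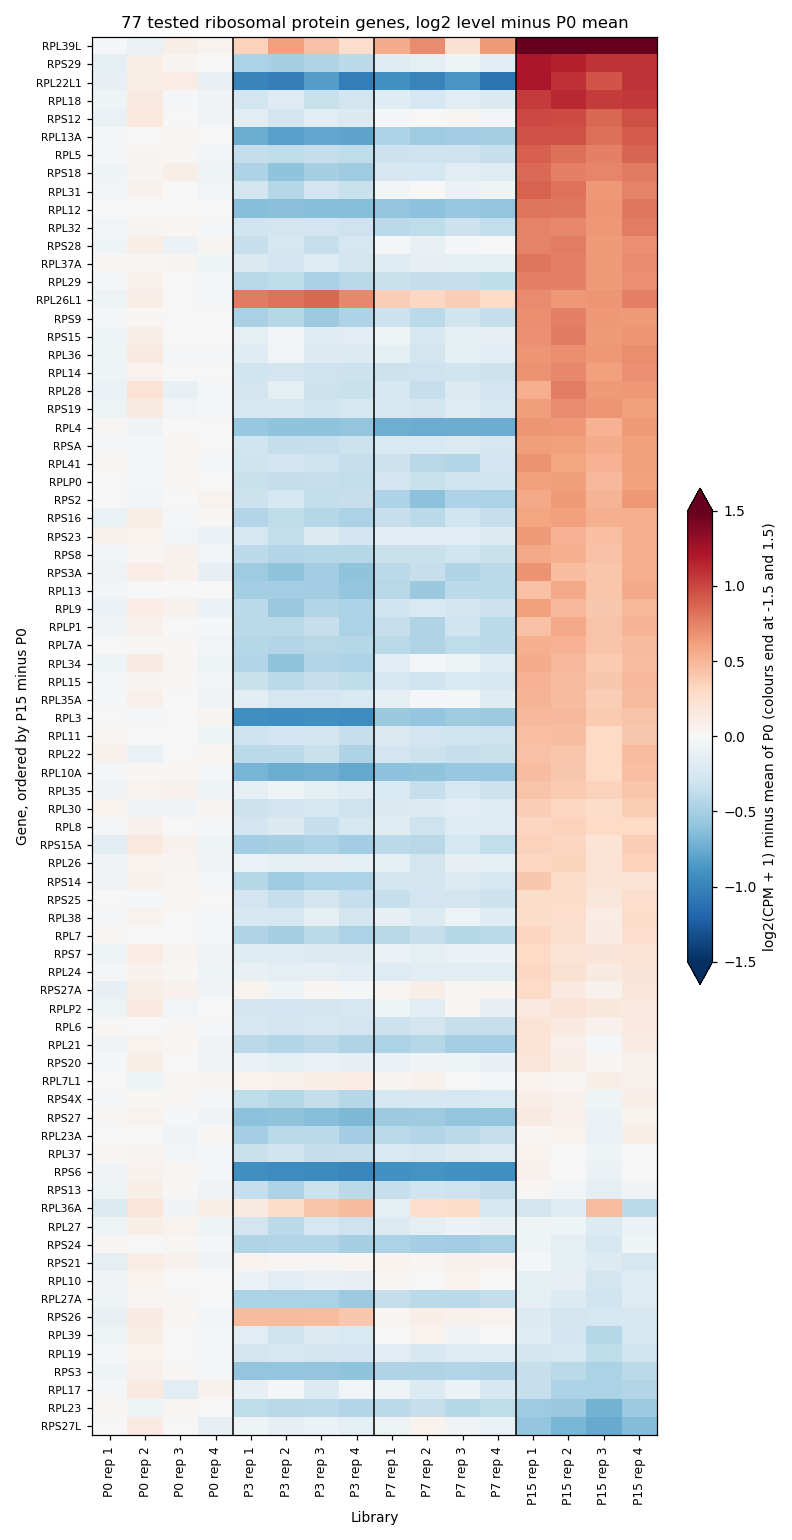
Log2 level of 77 of the 81 tested genes (rows, ordered by the P15 minus P0 difference) in each of the 16 libraries (columns), as the difference from the mean of the 4 P0 libraries, from blue (lower) to red (higher), with colours ending at -1.5 and 1.5. Most rows are pale to blue at P3 and P7 and red at P15, while RPL26L1 and RPS26 are red at P3 and the lowest rows, such as RPL23 and RPS27L, are blue at P15.

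The comparison of P15 with P0 shares its libraries with the steps above. Over this whole course, 61 of the 81 members were higher and 12 lower, against 45.3% and 40.9% of all tested genes, with a median log2 fold change of 0.44 against 0.04. With quantile normalization 53 (65.4%) were higher and 18 (22.2%) lower, against 43.7% and 42.4% of all tested genes, with a median of 0.31. At least 1 on the log2 scale was reached upward by 5 members, RPL18, RPL22L1, RPL39L and RPS29 among them (6.17%, against 12.2% of all tested genes), and downward by none (11.5%). RPS29, a small zinc-binding protein of the small subunit, had 7.72, 7.95, 7.90 and 7.86 at P0 and 9.07, 9.03, 8.94 and 8.94 at P15, a change of 1.14 (SE 0.04, limma adjusted p = 4.8e-18). RPL18, a large subunit protein, had 8.90, 9.10, 8.94 and 8.91 at P0 and 10.01, 10.09, 10.01 and 10.02 at P15, a change of 1.07 (SE 0.04, adjusted p = 3.5e-18). The 12 lower genes were RPL10, RPL17, RPL19, RPL23, RPL27, RPL27A, RPL39, RPS21, RPS24, RPS26, RPS27L and RPS3.

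The steps from P0 to P3 and from P7 to P15 compare separate libraries, but their tests share an estimate of the spread from all phases. Of the 81 members, 66 (81.5%) passed both tests, lower at P3 and higher at P15, against 20.6% of all tested genes. The remaining 15 were RPL10, RPL17, RPL19, RPL23, RPL26L1, RPL27, RPL36A, RPL39, RPL39L, RPL7L1, RPS21, RPS26, RPS27A, RPS27L and RPS3. By phase means, with no test, the lowest level lay at P3 in 53 members, at P7 in 15, at P15 in 9 and at P0 in 4, and the highest lay at P15 in 63, at P0 in 11, at P3 in 4 and at P7 in 3. Among all tested genes, the lowest lay at P3 in 24.5%, at P7 in 18.6%, at P15 in 38.5% and at P0 in 18.4%. The highest lay at P15 in 43.5%, at P0 in 20.1%, at P3 in 20.1% and at P7 in 16.2%. The spread among members exceeded their errors: the SD over members of the change on the log2 scale was 0.28 at the first step, 0.14 from P3 to P7 and 0.49 from P7 to P15, beside a median standard error of 0.04. Across members, the change from P0 to P3 and that from P7 to P15 had a Pearson correlation of -0.48 and a Spearman correlation of -0.48 (n = 81 genes, which share the libraries), against -0.12 and -0.19 over all tested genes.

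**Figure D3:**
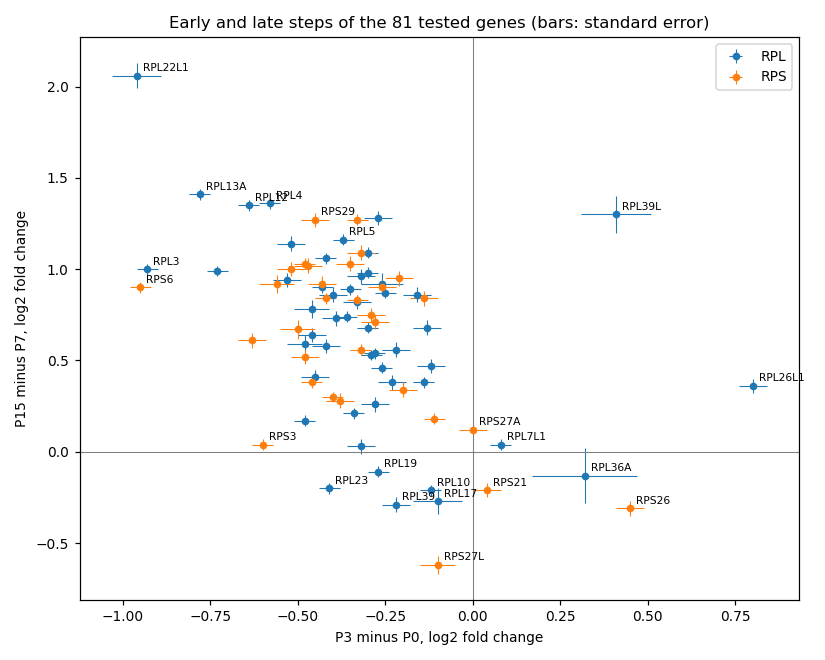
Log2 fold change from P0 to P3 (horizontal axis) against that from P7 to P15 (vertical axis) for the 81 tested genes, RPL in blue and RPS in orange, with bars for the standard error and names for selected genes. Most genes lie in the upper left, lower at P3 and higher at P15, with RPL22L1 at the far corner (-0.96 and 2.06), RPL26L1 and RPL39L on the right, and RPS26 and RPS27L below.

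By the annotated start, the 42 tested members with a C and at least 4 pyrimidines, such as RPL13A and RPS6 above, had medians of -0.34 on the log2 scale between P0 and P3 and of 0.82 from P7 to P15. The 23 tested members with another start had -0.29 and 0.46. Both groups were wide, from -0.29 to 2.06 and from -0.62 to 1.36 from P7 to P15, and the difference was not tested. The run counted from the start, past the bases shown where it goes on, was 11 in RPS3, which did not pass the test from P7 to P15, 19 in RPL39, which fell, and 6 in RPL22L1, which rose most.

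Each paralog was compared with its partner. RPL22L1 (chr3:170864875-170870208, minus strand) had log2 levels of 4.68, 4.90, 4.91 and 4.69 at P0, 3.81, 3.78, 3.97 and 3.76 at P3, 3.89, 3.80, 3.93 and 3.70 at P7 and 6.03, 5.89, 5.74 and 5.88 at P15. P3 and P7 overlapped, both lay below P0, and P15 lay above all, with changes of -0.96 (SE 0.07, limma adjusted p = 1.5e-11) from P0 to P3 and 2.06 (SE 0.07, adjusted p = 8.4e-19) from P7 to P15. RPL22, an RNA-binding protein of the large subunit whose gene is recurrently mutated in some tumours, changed by -0.39 and 0.73 in the same steps (SE 0.04 for each). The share of RPL22L1 in the CPM of the pair, not divided by length, was 4.88 to 6.3% at P0, 3.5 to 3.85% at P3, 3.17 to 3.8% at P7 and 8.37 to 9.33% at P15.

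RPL39L (chr3:187120948-187180908, minus strand), a paralog best known from the testis and from tumours, had log2 levels of 1.56, 1.49, 1.68 and 1.64 at P0, 1.94, 2.20, 2.03 and 1.85 at P3, 2.15, 2.30, 1.82 and 2.23 at P7 and 3.56, 3.42, 3.47 and 3.26 at P15. It was the lowest tested member at P0, and it rose by 0.41 (SE 0.1, limma adjusted p = 0.00093) at P3 and by 1.30 (SE 0.1, adjusted p = 1.3e-11) from P7 to P15. RPL39, at the end of the peptide exit tunnel, had 8.61, 8.79, 8.68 and 8.67 at P0, 8.53, 8.38, 8.48 and 8.46 at P3, 8.69, 8.74, 8.64 and 8.69 at P7 and 8.51, 8.40, 8.26 and 8.43 at P15. It was lower at P15 than at P7 by 0.29 on the log2 scale (SE 0.04, adjusted p = 1.8e-06), so the members of the pair moved in opposite directions, and the share of RPL39L in the pair was 0.408 to 0.536% at P0 and 2.43 to 3.19% at P15.

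RPS27L (chr15:63125872-63158021, minus strand), a paralog of RPS27 known as a p53 target, had log2 levels of 5.77, 5.89, 5.76 and 5.65 at P0, 5.71, 5.65, 5.68 and 5.63 at P3, 5.69, 5.82, 5.72 and 5.67 at P7 and 5.19, 5.09, 5.01 and 5.12 at P15. The first 3 phases overlapped and P15 lay below them, with a change from P7 of -0.62 (SE 0.05, limma adjusted p = 1.6e-11), while RPS27, a zinc-binding protein of the small subunit, rose by 0.61 (SE 0.04, adjusted p = 1e-13). The share of RPS27L in the CPM of the pair, not divided by length, was 7.44 to 8.16% at P0 and 10.5 to 11.1% at P3. It was 10.5 to 11.2% at P7 and 4.7 to 4.98% at P15. From P0 to P3, RPS27 fell by 0.63 (SE 0.04, limma adjusted p = 2.6e-13). The canonical transcripts have 6110 bases for RPS27L and 352 for RPS27, and the P0 means were 8.77 and 1800 CPM per kb.

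RPL26L1 (chr5:172958729-172969771, plus strand) had log2 levels of 5.50, 5.68, 5.58 and 5.55 at P0, 6.36, 6.40, 6.44 and 6.30 at P3, 5.95, 5.89, 5.95 and 5.88 at P7 and 6.29, 6.23, 6.24 and 6.33 at P15. It rose at P3 by 0.80 (SE 0.04, limma adjusted p = 2.6e-14), where RPL26, a large subunit protein that also binds the p53 mRNA, fell by 0.12 (SE 0.04, adjusted p = 0.0067). RPL7L1, a nucleolar relative of RPL7, stayed between 7.31 and 7.48 in all libraries, and its rise of 0.08 at P3 (SE 0.03, adjusted p = 0.027) did not pass the test without P0 replicate 2 (0.06, adjusted p = 0.099), P3 replicate 3 (0.07, adjusted p = 0.061) or P3 replicate 4 (0.07, adjusted p = 0.084), or with quantile normalization (0.06, adjusted p = 0.081).

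**Figure D4:**
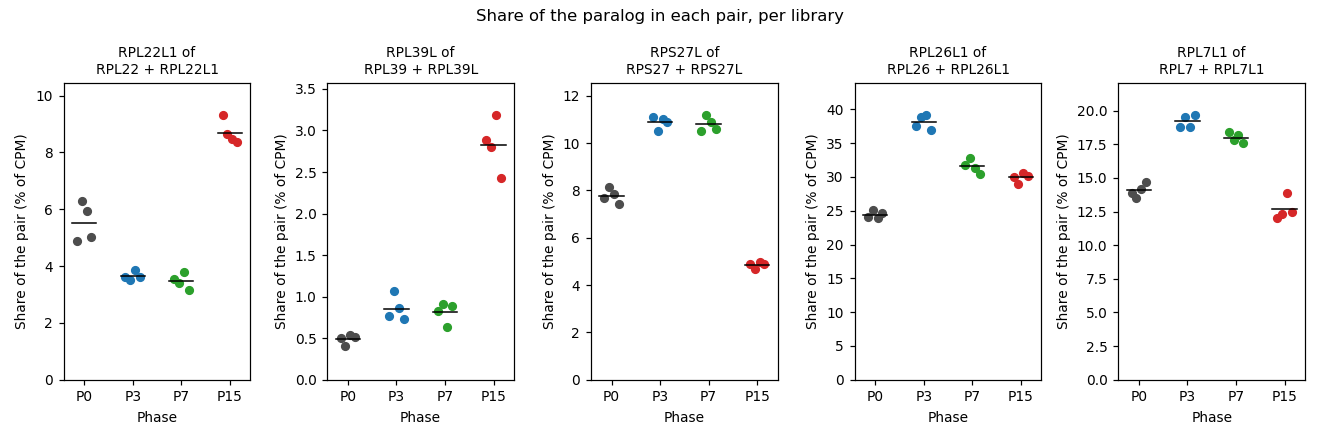
Share of the paralog in the CPM of its pair in percent, not divided by length (vertical axes, from 0), by phase, with 1 point per library and a line at the mean of the 4 libraries, for RPL22L1, RPL39L, RPS27L, RPL26L1 and RPL7L1. RPL22L1 and RPL39L have their highest shares at P15, RPS27L its lowest, and RPL26L1 and RPL7L1 their highest at P3. From P0 to P3, RPL26L1 changed by 0.80 and RPL26 by -0.12 on the log2 scale, and RPL7L1 by 0.08 and RPL7 by -0.46.

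The members not tested were RPL3L, a muscle form of RPL3, RPL10L, a testis form of RPL10, and RPS10. RPL3L had log2 levels of 0.00 to 0.27 at P0, P3 and P7 and of 0.28 to 0.69 at P15. RPL10L was listed at 0 in 15 libraries and had 0.12 in P15 replicate 4. RPS10, a small subunit protein needed by every ribosome, had 0.52 to 1.15 in all libraries. In GENCODE 44, 84.0% of the exons of its canonical transcript lie within the readthrough gene RPS10-NUDT3, and 96.9% of those of RPL17 (3.60 to 4.21 on the log2 scale) and 43.8% of those of RPL36A (2.05 to 2.92) lie within readthrough genes too, so the low rows of these 3 genes stand beside annotated overlaps whose part was not tested. RPL36A had the largest standard error of all tested members, 0.15, and its change from P7 to P15 was -0.13 (limma adjusted p = 0.41) with all libraries and -0.32 (adjusted p = 0.022) without P15 replicate 3. The exons of RPL10, RPL30 and RPL38 overlap genes of the opposite strand over 53.7%, 51.4% and 59.0%, and the strand setting of the counting is not given in the sources used here.

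Per kilobase of the canonical transcript, the highest mean levels at P0 were those of RPS24 (2750 CPM per kb), RPS18 (2700), RPL19 (2150) and RPS2 (1900), with a median over the 84 genes of 799.5 CPM per kb. The lowest of the tested members was RPL39L, with 2.77 CPM per kb. At P15 RPS18 stood at 4620 and RPS2 at 2870 CPM per kb, while RPS24 stood at 2530 and RPL19 at 1740. The canonical lengths were 7573 bases for RPL37, 7136 for RPL14 and 4535 for RPL27A, beside a median of 827 over the members. The order of genes per kilobase depends on these lengths, and which transcript the cells made was not measured. The 719 pseudogene rows with these names summed to 483 to 501 CPM at P0, 389 to 407 at P3, 404 to 540 at P7 and 749 to 803 at P15, and RPS2P5 alone had means of 265, 211, 201 and 418 CPM. Reads that match a gene and its processed copies cannot be placed with certainty, and the sum of the pseudogene rows at P15 lay above that of every library of the other phases.

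The genes are spread over the genome, and their change from P0 to P15 was set beside that of other genes nearby, with no test. The 12 tested members on chromosome 19 had a median log2 fold change of 0.70, from 0.57 to 1.07, against 0.40 for the 873 tested genes of the chromosome. The 9 on chromosome 3 had 0.67 against 0.22, the 5 on chromosome 11 had -0.05 against -0.53, the 6 on chromosome 17 had -0.04 against -0.06 and the 4 on chromosome X had -0.14 against -0.06. For the 77 members with at least 5 other tested genes starting within 1 Mb, the change from P0 to P15 was above the median of those neighbours in 60 and below it in 17, with a median difference of 0.35. From P0 to P3 it was below the neighbours in 67 and above in 9. Across these 77 members, the change of the gene and the median change of its neighbours had a Pearson correlation of 0.55 from P0 to P15 and 0.36 from P0 to P3, over genes that share libraries and in part neighbours.

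RPL18 and RPL13A lie close together on chromosome 19, RPL18 at chr19:48615328-48619184 and RPL13A at chr19:49487510-49493057, and rose by 1.07 and 0.91 from P0 to P15. The median of the neighbours was 1.18 for RPL18 (41 genes) and 0.76 for RPL13A (50 genes). RPL23 and RPL19 on chromosome 17 changed by -0.59 and -0.30, and the median of the neighbours of each was -0.54. For RPS3 on chromosome 11 the values were -0.41 and -1.11, and for RPS21 on chromosome 20 they were -0.16 and -0.80. For RPL22L1, RPS29 and RPS27L the gene and its neighbours had opposite signs, with 1.09 beside -0.06, 1.14 beside -0.18 and -0.66 beside 0.15. The neighbour comparison was added after the values of the genes had been seen, and copy number was not measured.

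**Figure D5:**
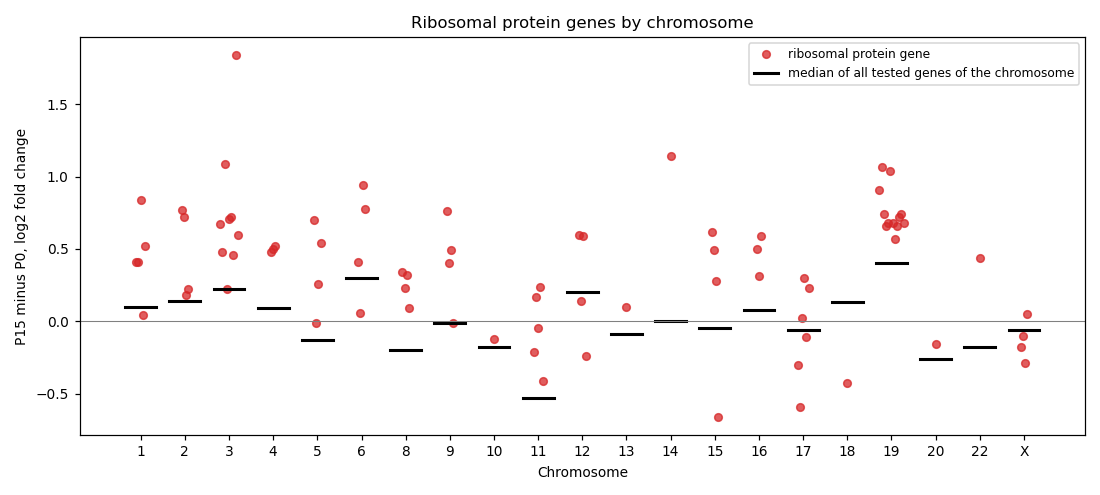
Log2 fold change from P0 to P15 (vertical axis) of each tested ribosomal protein gene (red points) by chromosome (horizontal axis), with a black line at the median of all tested genes of that chromosome. On chromosome 19 all 12 points lie above the line at 0.40, and on chromosome 11 all 5 lie above a line at -0.53.

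Other genes of the translation machinery were read against the same tests. Of 4 ribosomal proteins under other names, RACK1 (-0.52 at P3 and 0.82 from P7 to P15) moved as most members did, while FAU had 0.06 (limma adjusted p = 0.15) and -0.45 and RPL36AL -0.25 and -0.17. Of 19 tested other genes with a TOP start, mostly translation factors and snoRNA hosts, 17 (89.5%) were lower at P3 against 37.3% of all tested genes, with a median of -0.36, and 17 (89.5%) were higher at P15 than at P7 against 46.3%, with a median of 0.48. The elongation factor genes EEF1A1 and EEF2 changed by -0.69 and -0.40 at P3 and by 0.97 and 1.29 from P7 to P15. GAS5, a snoRNA host that codes for no protein, changed by -0.73 and 2.62, while TPT1, a translationally controlled tumour protein, changed by -0.60 and 0.16. SNHG1, another snoRNA host, rose at P3 by 0.38.

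The genes that assemble the ribosome did not follow the members at each step. Of 66 tested biogenesis genes, 28 (42.4%) were higher and 15 (22.7%) lower at P3, with a median of 0.08, against 31.4% and 37.3% of all tested genes. From P3 to P7, 3 (4.55%) were higher and 56 (84.8%) lower, with a median of -0.31, against 30.3% and 28.0%. From P7 to P15, 45 (68.2%) were higher and 13 (19.7%) lower, with a median of 0.32, against 46.3% and 40.1%. Of 11 genes of RNA polymerase I and its factors, which transcribe ribosomal RNA, 5 (45.5%) were higher and 3 (27.3%) lower at P3, with a median of -0.01. Of these 11, 9 (81.8%) were lower from P3 to P7, against 28.0% of all tested genes, and 8 (72.7%) were higher from P7 to P15, against 46.3%, with a median of 0.68. UBTF, the factor that opens ribosomal DNA, and POLR1A, the largest subunit of the polymerase, were the 2 that fell in the last step, by 0.80 and 0.58. Fibrillarin (FBL), which methylates ribosomal RNA, rose by 0.98. SBDS, which helps to release the factor EIF6 from the large subunit, rose by 0.85 at P3 and fell by 0.69 from P7 to P15.

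Of 17 regulators, 6 (35.3%) were higher and 7 (41.2%) lower from P7 to P15, with a median of 0.03, so their shares lay below and near the background of 46.3% and 40.1%. EIF4EBP2, a repressor of cap-dependent translation, had a mean log2 level of 6.80 ± 0.04 (SD, n = 4) at P7 and 4.86 ± 0.08 at P15, a change of -1.93 (SE 0.04, limma adjusted p = 4.4e-23). LARP1 changed by -0.45, RPTOR, the scaffold of mTOR complex 1, by -0.80, and RPS6KB2, an S6 kinase gene, by -1.14. MTOR rose by 0.48, RPS6KB1 by 0.50, EIF4EBP1 by 0.82 and DEPTOR, an inhibitor of mTOR, by 1.36. At P3, EIF4EBP1 changed by -0.82 and DEPTOR by -1.73, and LARP1 (-0.04), RPTOR (0.05) and MTOR (0.06) did not pass the test. Of 7 chaperones of single ribosomal proteins, PDCD2L rose by 1.75 from P7 to P15 and BCCIP fell by 0.68, with 4 (57.1%) higher and 3 (42.9%) lower in all. Of 7 genes of ribosome quality control, 1 (14.3%) was higher and 2 (28.6%) lower in this step. Of the 78 mitochondrial ribosomal protein genes, 24 (30.8%) were higher and 29 (37.2%) lower at P3, with a median of -0.03, beside a background of 31.4% and 37.3%. From P7 to P15, 38 (48.7%) were higher, near the background of 46.3%, and 23 (29.5%) lower, against 40.1%, with a median of 0.15.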

How the data were processed

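RNA was sequenced from 16 libraries, 4 at each of phases P0, P3, P7 and P15. Per the methods of the study and the submitters' processing notes, paired-end reads were mapped to GRCh38 by STAR 2.6.1a and summarised per gene by featureCounts. The values the authors deposited are log2(CPM + 1) with 2 decimals; quantile normalization and median centring, which the methods also name, do not show in them. Strand setting and treatment of multi-mapping reads are not given in the sources used here.

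The deposited log2 values were fitted in limma 3.58.1 (R 4.3.3), 1 coefficient per phase and with limma's variance trend, for the 13249 genes whose mean exceeded 1 CPM, and p-values were adjusted over all of them by Benjamini-Hochberg. A fold change is thus on the log2(CPM + 1) scale and understates the change of low genes. On simulated data of 13249 genes for P15 against P7, 99 of 100 genes changed by 0.5 and 100 of 100 changed by 1 were recovered. There were 7 false calls among the genes left unchanged. The changed genes were drawn only from those with a higher mean level, with independent noise and all other genes unchanged. The recovery therefore does not cover low members such as RPL39L and RPL36A, or data in which most genes change. Library depth, 33.8 to 50.0 M, was inferred from the steps between low values. Sums, shares and figures were made in Python 3.11.15 with pandas 2.3.3, numpy 2.4.6 and matplotlib 3.10.9. Coordinates and lengths come from GENCODE 44 on GRCh38, which matched 12071 of 13247 tested symbols (91.1%), and start windows and promoters from RefSeq.

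The members and gene lists were chosen with earlier results of these data known. Genes named with values are both genes of each paralog pair, RPL5, RPL11, the stalk genes, RPSA, RPS6, RPS27A, RPS19, RPL10 and RPS26, the 3 largest and 3 smallest changes of each comparison, every member past 1 on the log2 scale and those not tested; other genes were named after their values were seen, and a few genes of these sets are counted but not reported here by name. Deviations from the phase means of libraries with the same replicate number correlated by -0.15 to 0.22 in 24 pairs, so the numbers were not taken to pair libraries. Tried beside this were no filter or a filter on every library, a pseudocount of 0.1 or 5, quantile normalization, equal library medians, replicate blocks, no variance trend, only the phases compared, pseudogene rows added to their genes and each library left out.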

Additional observations from a re-analysis of the deposited data

Results flagged for a closer look

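In 9 of 169 groups of 4 libraries, 1 library lay farther from the other 3 than Dixon's 95% critical value allows, with the gap given as a share of the range of the group; chance gives about 1 in 20, here 8. In P15 replicate 3, RPL12 (10.28 against 10.41 to 10.42 on the log2 scale, gap 0.93), RPL4 (11.58 against 11.70 to 11.72, gap 0.86) and RPL23 (9.06 against 9.21 to 9.24, gap 0.83) were low. RPL18 was high in P15 replicate 2 (10.09 against 10.01 to 10.02, gap 0.88), and RPL10L, listed at 0 in the other 3, was at 0.12 in P15 replicate 4 (gap 1.0). In P3 replicate 2, RPL12 was high (8.99 against 8.98, gap 1.0, a single step of the rounded values) and RPL34 was low (7.45 against 7.59 to 7.61, gap 0.87). RPS26 was low in P3 replicate 4 (7.36 against 7.41 to 7.42, gap 0.83), and RPS2 was low in P7 replicate 2 (10.20 against 10.34 to 10.35, gap 0.93).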

How the results depend on the processing

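Of 4764 values under the alternatives, 4683 kept their direction and side of the threshold or moved by less than the spread between libraries. Quantile normalization gave medians of 0.66 for P15 against P7 and 0.31 for P15 against P0, 10 in place of 17 genes higher by at least 1 at P15 than at P7, and summed levels of 64991 CPM at P0, 49017 at P3, 51720 at P7 and 78500 at P15; it turned the change from P0 to P15 of RPL7 to -0.03 (limma adjusted p = 0.41) and of RPLP2 to -0.02 (adjusted p = 0.58). The cause was not tested. With the same library median, the sum at P7 was 51425 CPM. Against none with all libraries, 1 gene was lower by at least 1 at P3 with a pseudocount of 0.1, and 0 to 1 when single libraries were left out (1 without P0 replicate 1, P0 replicate 4 or P3 replicate 3). Leaving out single libraries gave medians of -0.34 to -0.32, 0.06 to 0.08, 0.71 to 0.76 and 0.43 to 0.46 for the 4 comparisons in the order of the text. With the replicate number of the descriptions as a block, 5 members were higher and 72 lower at P3, 32 and 7 at P7 against P3, 69 and 8 at P15 against P7 and 61 and 12 at P15 against P0; it called RPL36A at P3 (adjusted p = 0.026) and lost RPL32 at P7 (adjusted p = 0.063). RPL32 also lost its call from P3 to P7 without most single P3 or P7 libraries, at an adjusted p of 0.057 to 0.12. Values near 0 CPM, such as those of RPL3L and RPL10L, are limited by depth, where 1 count is 0.02 to 0.0296 CPM.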
